A study of Mus musculus with 6 samples.

Results

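Expression of 8 complement genes was examined in cultured CAFs, fibroblasts that had been taken out of tumours (cancer-associated fibroblasts). The genes were C3, the central component, C1ra, C1s1 and C4b of the classical pathway, Cfb of the alternative pathway, and the inhibitors Serping1, Cd55 and Cd59a, chosen by symbol from the 55401 genes of the deposited table. All 8 passed the filter on low counts, which left 13590 genes for testing. Their chromosomes, starts and ends below are those of GENCODE M21 on GRCm38, the build also called mm10.

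The RNA-seq data comprise 6 libraries in 2 genotype groups, WT and Thbs2KO, with 3 libraries each. Thbs2 encodes thrombospondin-2, a secreted matrix protein. In both groups the CAFs came from orthotopic tumours raised by injecting MTO into the mouse rectum and were then grown in serum on fibronectin. Allele, strain, age, sex and passage were not given in the labels. The labels also do not tell separate mice from repeat cultures, so a p-value here covers the spread between libraries alone, which may be technical.

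Complement is a cascade of plasma and tissue proteins in which proteases cleave one another on a surface. In the classical pathway C1q holds the proteases C1r and C1s, of which C1r activates C1s and C1s cleaves C4 and C2. In the alternative pathway factor B joins deposited C3 fragments, and both routes cleave C3 into an opsonin and an anaphylatoxin. C1 inhibitor, the product of Serping1, blocks C1r and C1s, CD55 dissociates the enzymes that cleave C3, and CD59 prevents assembly of the membrane attack complex. Although the liver makes most circulating complement, fibroblasts produce several components locally, and these genes are known targets of interferons and inflammatory cytokines.

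Total expected counts ran from 19649066 to 24417464 per library. Thbs2, the targeted gene, measured 2327, 4166 and 3705 CPM (counts relative to library size, with TMM factors) in WT replicates 1, 2 and 3 and 538.2, 424.7 and 412 CPM in Thbs2KO replicates 1, 2 and 3 (log2 fold change -2.89, edgeR Benjamini-Hochberg adjusted p = 0.00521), lower in all 3 Thbs2KO libraries. An exact two-sided permutation test gave p = 0.1, the smallest that 3 against 3 libraries allow. Whether the remaining Thbs2 reads lie outside the deleted part was not analysed here. WT replicate 1 and Thbs2KO replicate 3 had the highest values on the second principal component, which held 27.9% of the variance, at 44.9 and 16.3. The other libraries lay from -22.1 to -4.18. On the first, which held 46%, WT ran from -39.8 to -11.2 and Thbs2KO from 17.9 to 45.9, with Thbs2KO replicate 3 the highest. The closest pair was Thbs2KO replicates 1 and 2, whose counts differed by a chi-square of 3.79 per degree of freedom, where every other pair lay between 15.7 and 121.8. All 10 fibroblast markers were detected. Of these, Col1a1 was lower and Pdgfra higher in Thbs2KO without overlap, and 8 overlapped between the groups. The T and B cell markers summed to at most 0.215 CPM in any library, with 4 of 6 at 0, and the hepatocyte markers Alb, Ttr and Apoa1 were at 0 throughout.

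None of the 8 genes differed between the genotypes by edgeR's quasi-likelihood test at a Benjamini-Hochberg adjusted p below 0.05, a level that 1.09% of all tested genes passed (0.537% lower and 0.552% higher in Thbs2KO). C3 was the single member with an unadjusted p under 0.05, against 13.3% of all tested genes (7.56% lower), and the single one whose groups did not overlap, against 19.7% (10.3% lower). With 1 of 8 members in each case, both shares lay near those of all genes. DESeq2 called C3 lower and no other member, and it called 5.15% of all genes that had an adjusted p. Of the 8 log2 fold changes 5 were negative and 3 positive, with a median of -0.43 beside a median of -0.0038 over all tested genes.

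**Figure D1:**
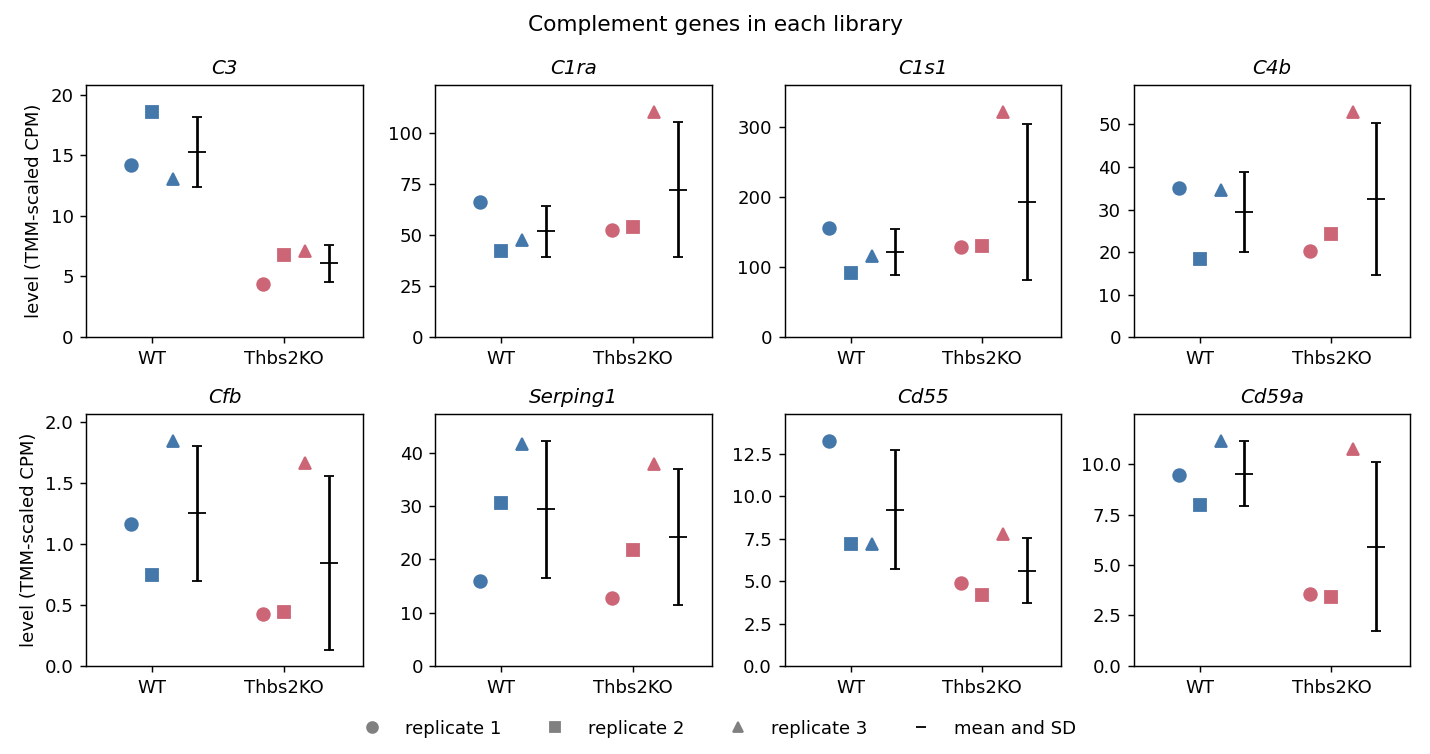
TMM-scaled CPM (vertical axis, from 0) of each gene in the 3 WT libraries (blue) and the 3 Thbs2KO libraries (red), with the replicate shown by the symbol and the mean and SD in black. For C3 every Thbs2KO point (4.35 to 7.14 CPM) lies below every WT point (13.1 to 18.6 CPM), while in the other panels the groups overlap and Thbs2KO replicate 3 (triangle) is the highest Thbs2KO library.

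C3 (ENSMUSG00000024164.15, chromosome 17, 57203970 to 57228136, minus strand) encodes the protein on which all complement pathways converge. Its level was 14.2, 18.6 and 13.1 CPM in WT replicates 1, 2 and 3 and 4.35, 6.75 and 7.14 CPM in Thbs2KO replicates 1, 2 and 3, from 312 to 424 reads per WT library and 92 to 146 reads per Thbs2KO library. All 3 Thbs2KO libraries were lower than all 3 WT libraries, at 28.5%, 44.2% and 46.8% of the WT mean. The mean was 15.3 ± 2.91 CPM in WT and 6.08 ± 1.51 CPM in Thbs2KO (SD, n = 3 each), and the log2 fold change of -1.33 (SE 0.232, 95% interval -1.88 to -0.77) had an edgeR Benjamini-Hochberg adjusted p = 0.0623. DESeq2 gave an adjusted p = 2.41e-05 at nearly the same fold change, -1.32. With each library left out in turn the log2 fold change stayed between -1.46 and -1.13, and C3 was called in 0 of these 6 edgeR fits, with Benjamini-Hochberg adjusted p from 0.0613 to 0.186. C3 was called by edgeR without a filter on low counts (Benjamini-Hochberg adjusted p = 0.0204). Across all alternatives its adjusted p ran from 2.41e-05 to 0.186.

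The summed level of the 8 epithelial markers was, like that of C3, lower in Thbs2KO, at 19.8 to 26.2 CPM in the WT libraries and 7.19 to 9.53 CPM in the Thbs2KO libraries, with 6 of 8 reaching 1 CPM in some library and none at 0 in every library. Krt19 was the most abundant of them in every library, at 9.86 to 14.6 CPM in WT and 3.57 to 6.22 CPM in Thbs2KO, and Epcam stayed at or below 1.80 CPM. Krt19, Krt20, Cldn7 and Vil1 were lower without overlap, 4 of the 8, beside 10.3% of all tested genes, and Epcam, Cdh1, Krt8 and Krt18 overlapped. Cldn7 and Vil1 rested on very few counts, at no more than 0.2515 and 0.394 CPM in any library. The 10.3% is a share of genes that passed the filter on low counts, so the 2 shares are not alike. Without Krt19 the sum was 5.21, 11.1 and 12.4 CPM in WT and 1.42, 1.71 and 5.97 CPM in Thbs2KO, and the groups overlapped. Of the 6 endothelial markers Kdr and Tek reached 1 CPM and Pecam1 did not, and the sum was 11.8 to 32.03 CPM in WT and 32.17 to 50.5 CPM in Thbs2KO. These ranges nearly touch, Kdr was the most abundant of the list, and each of the 6 markers overlapped between the groups. Sums that overlapped between the groups were those of the other lists: pericyte and smooth muscle at 252.9 to 867.5 CPM, mesothelial at 0.215 to 1.18 CPM with 2 of 4 markers at 0, and glial at 0.378 to 1.89 CPM with 1 of 3 at 0. Of the 8 pericyte and smooth muscle markers, Mcam and Cnn1 were lower without overlap and 6 overlapped. Cnn1, the most abundant of that list, measured 151.1, 421.1 and 414.9 CPM in WT and 104.9, 122.1 and 91.8 CPM in Thbs2KO. The part of such RNA in the C3 difference was not tested. In bulk RNA, fewer cells of a type and less RNA per cell cannot be told apart.

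The sequence before the C3 start is shown because C3 is the member whose groups separated. It was searched, with those of the other members, for letters of motifs of factors known to act on complement genes: GAS (TTCNNNGAA, for response to interferon-gamma), ISRE (for interferon response), NF-kB and C/EBP (TTNNGCAAT), each on both strands. Over the 250 bases before the start, these letters occurred in 7.02%, 2.98%, 0.356% and 1.93% of 32851 RefSeq promoters on GRCm38.p6. No motif letters were found for C3 (chr17:57228137-57228386, minus strand), so the run has no capitals.
C3: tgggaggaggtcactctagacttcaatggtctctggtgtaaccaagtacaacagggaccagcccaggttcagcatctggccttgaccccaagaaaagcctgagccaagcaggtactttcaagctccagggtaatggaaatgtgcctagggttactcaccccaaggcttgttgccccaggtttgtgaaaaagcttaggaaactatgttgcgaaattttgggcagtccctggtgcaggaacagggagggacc

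C1ra and C1s1 encode the proteases C1r and C1s of the C1 complex, in which C1r activates C1s. They lie on chromosome 6 with their ends facing, C1ra (ENSMUSG00000055172.10) at 124512405 to 124523443 on the plus strand and C1s1 (ENSMUSG00000038521.17) at 124530345 to 124542359 on the minus strand, 6901 bases apart. C1ra measured 65.9, 42.1 and 47.5 CPM in WT and 52.3, 53.9 and 110.1 CPM in Thbs2KO. C1s1 measured 156.1, 91.7 and 116.4 CPM in WT and 128.3, 129.8 and 322 CPM in Thbs2KO. In both genes Thbs2KO replicate 3 was the highest of the 6 libraries, at 2.13 and 2.65 times the WT mean, while Thbs2KO replicates 1 and 2 lay between 101% and 107% of it.

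The log2 fold changes of C1ra and C1s1 were 0.48 (SE 0.326) and 0.67 (SE 0.4), with edgeR Benjamini-Hochberg adjusted p of 0.627 and 0.559, and 95% intervals of -0.31 to 1.26 and -0.29 to 1.63. These differences shrank without Thbs2KO replicate 3, to log2 fold changes of 0.04 and 0.09. They grew without WT replicate 1, to 0.69 and 0.89, and were 0.25 and 0.31 without both libraries. The pair moved together from library to library, with a Pearson correlation of log2 CPM of 0.995 over the 6 libraries, which share library size and scaling within each point. Per length, C1s1 stood at 2.08 to 2.79 times the level of C1ra in the 6 libraries. The ratio was highest in Thbs2KO replicate 3.

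The stretch before the C1s1 start is shown because it was 1 of 2 among the members with promoters in the RefSeq table that held any of the motif letters, here those of C/EBP (chr6:124542360-124542609, minus strand). The match, in capitals, lies 242 to 234 bases before the start.
C1s1: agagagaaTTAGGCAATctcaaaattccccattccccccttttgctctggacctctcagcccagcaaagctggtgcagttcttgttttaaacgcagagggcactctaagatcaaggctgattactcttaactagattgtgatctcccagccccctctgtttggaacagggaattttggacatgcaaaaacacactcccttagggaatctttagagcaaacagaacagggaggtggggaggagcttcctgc

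C4b (ENSMUSG00000073418.4, chromosome 17, 34728380 to 34743882, minus strand) encodes complement C4, the substrate of C1s. It measured 35.1, 18.5 and 34.5 CPM in WT and 20.3, 24.3 and 52.9 CPM in Thbs2KO. WT replicate 2 was the lowest library and Thbs2KO replicate 3 the highest, so the groups overlapped, while Thbs2KO replicates 1 and 2 lay below WT replicates 1 and 3. The log2 fold change was 0.15 (SE 0.414, edgeR Benjamini-Hochberg adjusted p = 0.932, 95% interval -0.84 to 1.14). It changed sign to -0.40 without Thbs2KO replicate 3 and to -0.09 without WT replicate 2, and was 0.40 without Thbs2KO replicate 1. C4b also varied with C1s1 and C1ra (Pearson r of 0.848 and 0.838 over 6 libraries, as a description).

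Cfb (ENSMUSG00000090231.10, chromosome 17, 34856374 to 34862518, minus strand), 112.5 kb from C4b, encodes factor B, the protease of the alternative pathway. Its counts were low, with 27, 17.01 and 44 expected counts in WT and 9, 9 and 33.76 in Thbs2KO, or 1.16, 0.745 and 1.84 CPM and 0.426, 0.440 and 1.66 CPM. Thbs2KO replicates 1 and 2 were the lowest libraries, and Thbs2KO replicate 3 reached the WT range. The log2 fold change of -0.57 (SE 0.625, 95% interval -2.07 to 0.93, edgeR Benjamini-Hochberg adjusted p = 0.789) was -1.52 without Thbs2KO replicate 3, -0.18 without WT replicate 3, and -0.25 and -0.26 without Thbs2KO replicates 1 and 2. Exons of Cfb share 2246 bases, 79.5% of its exon length, with Gm20547, a gene annotated on the same strand, to which at most 4.55 expected counts were assigned in any library.

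Serping1 (ENSMUSG00000023224.12, chromosome 2, 84765387 to 84775444, minus strand), the C1 inhibitor gene, had group means of 29.4 ± 12.9 and 24.2 ± 12.8 CPM (SD, n = 3), which differ by less than either SD. It measured 15.97, 30.6 and 41.7 CPM in WT and 12.7, 21.8 and 38.0 CPM in Thbs2KO, a 2.61-fold span among the WT libraries and a 2.99-fold span among the Thbs2KO libraries. The groups overlapped over nearly their whole range, and the log2 fold change was -0.28 (SE 0.469, 95% interval -1.41 to 0.84, edgeR Benjamini-Hochberg adjusted p = 0.875). It was -0.77 without Thbs2KO replicate 3 and -0.58 without WT replicate 1, and turned to 0.052 without WT replicate 3 and 0.02 without Thbs2KO replicate 1. Serping1 was the member with its lowest WT value in WT replicate 1, the library in which C1ra and C1s1 were highest among WT.

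Cd55 (ENSMUSG00000026399.12, chromosome 1, 130439027 to 130462744, minus strand) encodes decay-accelerating factor, a membrane-anchored inhibitor of C3 cleavage. Its level was 13.3, 7.19 and 7.17 CPM in WT and 4.87, 4.21 and 7.77 CPM in Thbs2KO. WT replicate 1 was high and Thbs2KO replicate 3 lay just above the other WT libraries. The log2 fold change was -0.71 (SE 0.339, 95% interval -1.52 to 0.10, edgeR Benjamini-Hochberg adjusted p = 0.442). With 1 library left out it ran from -1.02 without Thbs2KO replicate 3 to -0.35 without WT replicate 1.

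Cd59a (ENSMUSG00000032679.12, chromosome 2, 104095801 to 104115354, plus strand) encodes an inhibitor of the membrane attack complex. It measured 9.47, 7.97 and 11.1 CPM in WT and 3.55, 3.43 and 10.8 CPM in Thbs2KO. Thbs2KO replicates 1 and 2 were at 37.2% and 35.9% of the WT mean and below every WT library, while Thbs2KO replicate 3 was at 112.9%. The log2 fold change was -0.69 (SE 0.46, 95% interval -1.79 to 0.41, edgeR Benjamini-Hochberg adjusted p = 0.615), and with 1 library left out it ran from -1.45 without Thbs2KO replicate 3 (adjusted p = 0.0507) to -0.43 and -0.41 without Thbs2KO replicates 1 and 2. Its promoter is shown because it was the other one with motif letters, those of ISRE, in capitals, 187 to 178 bases before the start (chr2:104095551-104095800, plus strand).
Cd59a: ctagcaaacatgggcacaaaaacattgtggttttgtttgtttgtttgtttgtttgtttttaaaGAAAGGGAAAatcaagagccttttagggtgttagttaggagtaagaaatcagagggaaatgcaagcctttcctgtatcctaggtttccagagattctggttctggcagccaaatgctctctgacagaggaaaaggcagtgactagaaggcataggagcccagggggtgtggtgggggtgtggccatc
The windows of Cd55 and C1ra held none of the motif letters, and a second, overlapping C1s1 window held none. Of the 250 bases of the C1ra window 216 lie in annotated untranslated exon sequence of C1ra, so most of it is not before the annotated start. The second C1s1 window holds 38 such bases of C1s1. Such matches are descriptions of the letters only. Promoters of C4b, Cfb and Serping1 were not analysed here.

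**Figure D2:**
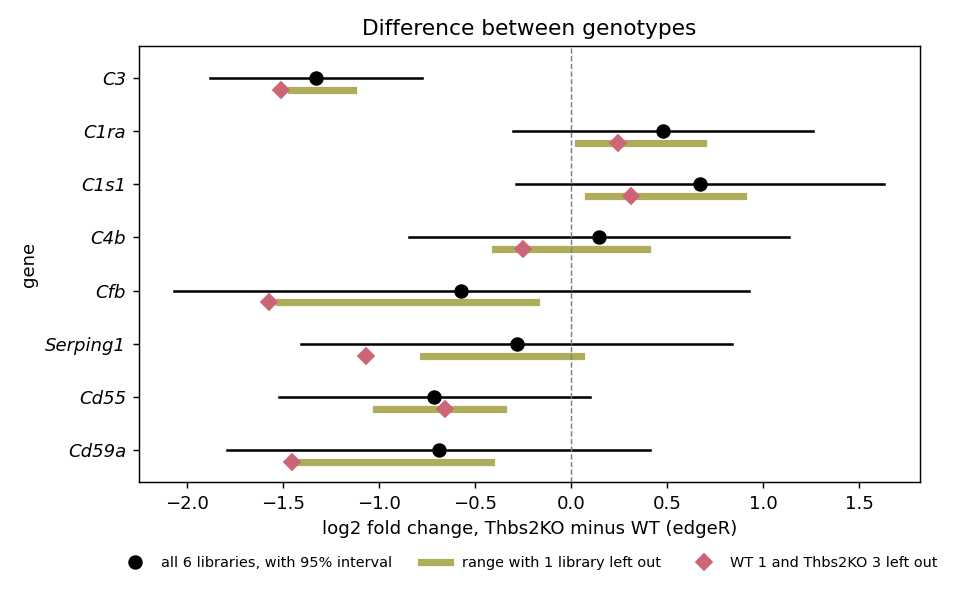
Log2 fold change of Thbs2KO minus WT by edgeR (horizontal axis) for each gene (vertical axis), with black points and lines for all 6 libraries and the 95% interval, olive bars for the range with 1 library left out, and diamonds for the fit without WT replicate 1 and Thbs2KO replicate 3. C3 stays between -1.46 and -1.13 in the olive bar, and the bars of C4b and Serping1 cross 0.

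WT replicate 1 and Thbs2KO replicate 3 were the 2 libraries with positive values on the second principal component. In a fit without both, 3 of the 8 genes were called lower in Thbs2KO: C3 (log2 fold change -1.51, edgeR Benjamini-Hochberg adjusted p = 0.0312), Cd55 (-0.66, adjusted p = 0.048) and Cd59a (-1.45, adjusted p = 0.00769). The same fit, on 2 libraries against 2, called 11.2% of all tested genes. C1ra and C1s1 had log2 fold changes of 0.25 and 0.31 there (adjusted p = 0.0863 and 0.185), and C4b, Cfb and Serping1 had -0.25, -1.57 and -1.07 without a call. These libraries were chosen for leaving out with earlier results of these data known, and the remaining Thbs2KO libraries are the most alike pair.

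Thbs2KO replicate 3 was the highest Thbs2KO library for 8 of the 8 genes, as it was for 45.1% of all tested genes. On the log2 CPM scale with a prior count of 2, 6 of the 8 stood at least 2-fold above the mean of Thbs2KO replicates 1 and 2, against 3.96% of all tested genes. These 6 were C1ra, C1s1, C4b, Cfb, Serping1 and Cd59a, with differences from 1.05 for C1ra to 1.74 for Cfb. Cd55 and C3 differed by 0.77 and 0.39. The median difference was 1.22 over the members and 0.02 over all tested genes. Of the 15 other testable complement genes Thbs2KO replicate 3 was highest for 7 and at least 2-fold above for 3, with a median difference of 0.09, and of 23 genes known to act upstream of complement genes it was highest for 18 and at least 2-fold above for 4. Except for C3, each member differed more between Thbs2KO replicate 3 and the other Thbs2KO libraries than between the genotypes, on the log2 scale.

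WT replicate 1 did not show the same pattern. It was the highest WT library for C1ra, C1s1, C4b and Cd55, 4 of the 8, as it was for 42% of all tested genes, with a median difference from the other WT libraries of 0.24. For Serping1 that difference was -1.16. Stat2 and Irf9, transcription factor genes of the type I interferon response that were picked after their values were seen, were high in both WT replicate 1 and Thbs2KO replicate 3. Stat2 measured 105.5, 29.8 and 28.3 CPM in WT and 27.4, 27.8 and 100.4 CPM in Thbs2KO, and Irf9 measured 52.0, 19.8 and 17.9 CPM and 19.6, 18.2 and 45.6 CPM. The fibroblast markers, summed over the 10 genes, stood at 30660 to 33950 CPM in WT, at 31220 and 30120 CPM in Thbs2KO replicates 1 and 2, and at 41080 CPM in Thbs2KO replicate 3, which was the highest Thbs2KO library for 9 of 10. The part of these differences in the complement levels was not tested.

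**Figure D3:**
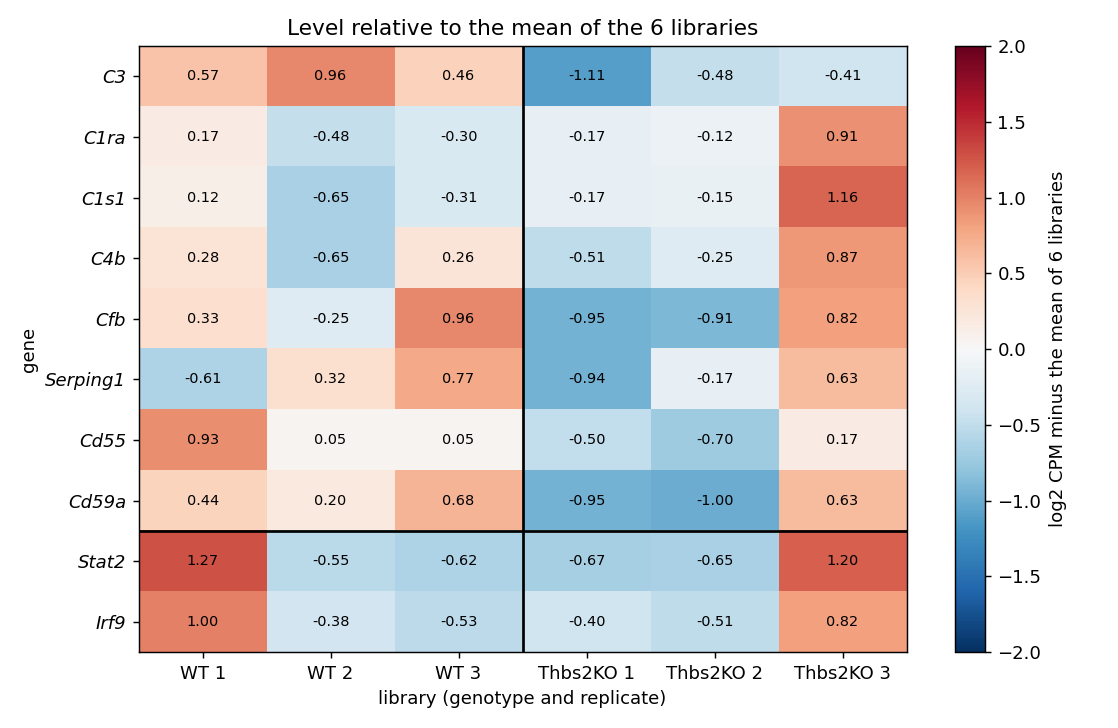
Log2 CPM of each gene (rows) in each library (columns) minus its mean over the 6 libraries, from blue (lower) to red (higher), with the 8 members above the line and Stat2 and Irf9 below it. C3 separates the genotypes, the other members are highest among Thbs2KO in replicate 3, and the Stat2 and Irf9 rows are red in WT replicate 1 and Thbs2KO replicate 3.

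Levels of different genes were compared as CPM per kb of exon. In WT the order was C1s1 (38.8 ± 10.4), C1ra (17.4 ± 4.19), Serping1 (12.7 ± 5.54), Cd59a (5.26 ± 0.877), C4b (5.16 ± 1.66), C3 (2.97 ± 0.567), Cd55 (1.90 ± 0.724) and Cfb (0.443 ± 0.196 CPM per kb, SD, n = 3). C1s1 was above C1ra and Cd55 above Cfb in 6 of 6 libraries. Neighbours that did not differ beyond their spread in WT were C1ra and Serping1, Cd59a and C4b, C4b and C3, and C3 and Cd55. In Thbs2KO the means were 61.8 ± 35.6 for C1s1, 24.2 ± 11.1 for C1ra, 10.4 ± 5.51 for Serping1, 5.71 ± 3.13 for C4b, 3.26 ± 2.32 for Cd59a, 1.18 ± 0.294 for C3, 1.16 ± 0.391 for Cd55 and 0.298 ± 0.251 for Cfb. The ranges of Serping1 and C4b, of Serping1 and Cd59a, of C4b and Cd59a, and of C3 and Cd55 overlapped there. The ratio of C4b to C3 per length was 2.24, 0.897 and 2.38 in WT and 4.22, 3.25 and 6.70 in Thbs2KO, higher in every Thbs2KO library. The ratios of C3 to Cfb, to Cd55 and to Cd59a overlapped between the groups. C3 is the member whose own groups separated, and none of these ratios was tested.

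**Figure D4:**
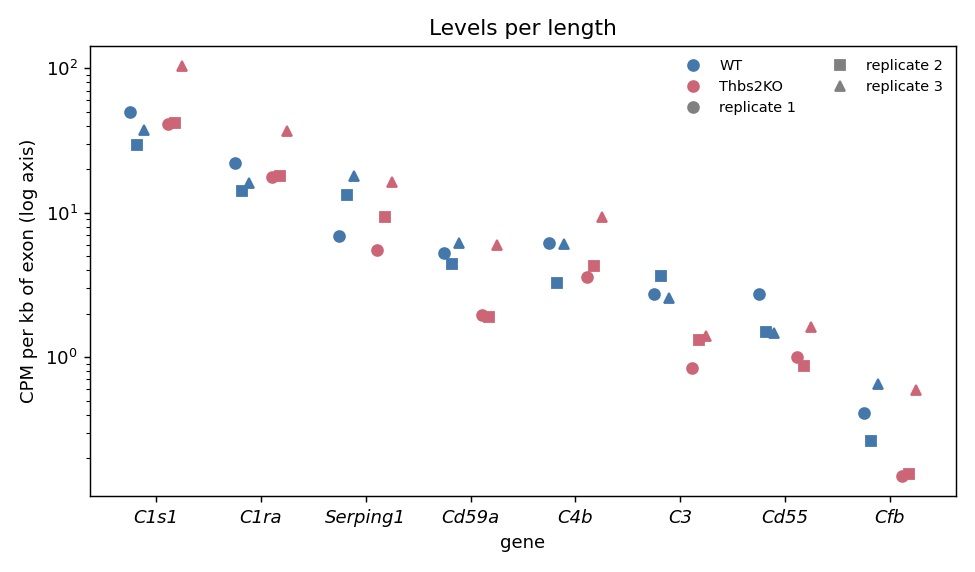
CPM per kb of exon (vertical log axis) of each gene (horizontal axis, ordered by the WT mean) in the WT libraries (blue) and the Thbs2KO libraries (red), with the replicate shown by the symbol. The levels run from C1s1, at 29.3 to 102.9 CPM per kb, down to Cfb, at 0.151 to 0.653 CPM per kb.

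Several members have close copies in the mouse genome, between which RSEM divides shared reads by an estimate. The longest transcripts of C1ra and C1rb, C1s1 and C1s2, C4b and C4a, Cd55 and Cd55b, and Cd59a and Cd59b were 97.9%, 95.9%, 95.9%, 93.0% and 83.2% identical over their best alignment. C1rb and Cd55b received 0 counts in every library, and C1s2 12.11 against 20445 for C1s1, summed over the libraries. Over all libraries C4a took 2.37% of the counts of its pair and Cd59b 3.996%. By library the share ran from 1.66% to 3.80% for C4a and from 1.41% to 11.8% for Cd59b, which was highest in Thbs2KO replicate 1. With each pair of copies summed no member was called, and the log2 fold changes of Cd59a and C4b were -0.62 and 0.15. The kit does not mark strand, and antisense genes overlap 18.4% of C1s1 exon bases (Gm16567) and 2.10% of those of Cd55 (Gm16083), with at most 1 count assigned to either in a library.

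Of 49 other complement genes 15 reached testable counts, 11 were at 0 in every library, and none was called by edgeR. At an unadjusted p under 0.05, 1 was higher, beside 5.72% higher over all tested genes, and 0 were lower, and DESeq2 called 1 higher. The groups did not overlap for 1 of the 15, higher in Thbs2KO, beside 9.37% over all tested genes. Their median log2 fold change was 0.06, with 10 positive and 5 negative.

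Among the regulators Clu, the gene of clusterin, measured 1.03, 5.48 and 4.02 CPM in WT and 0.757, 1.13 and 2.005 CPM in Thbs2KO (log2 fold change -1.44, edgeR Benjamini-Hochberg adjusted p = 0.409). Cr1l, which encodes the rodent membrane regulator Crry, was nearly level at 61.6 ± 4.09 and 63.0 ± 2.22 CPM (SD, n = 3), with a log2 fold change of 0.03 and an SE of 0.0763. In the classical and lectin group 5 of 17 genes were testable and all 5 log2 fold changes were positive, from 0.01 for C1rl to 0.50 for C4a. Over all tested genes 6678 of 13590 were positive. The SEs of C1rl and C4a were 0.219 and 0.437, and C4a, at 0.311 to 1.0 CPM, shares reads with C4b. Colec12, a scavenger receptor collectin, measured 263.3 ± 64.7 and 362.2 ± 113.3 CPM, and the lectin pathway protease Masp1 153.7 ± 43.5 and 159.9 ± 9.07 CPM in WT and Thbs2KO, neither called. The C1q chain genes C1qa, C1qb and C1qc, which macrophages mainly express, were not testable and reached at most 0.733 CPM in any library. The 12 macrophage and other myeloid markers, which include them, summed to 9.33 to 20.9 CPM in WT and 8.37 to 15.2 CPM in Thbs2KO. None of the 12 was at 0 in every library, and Ptprc did not exceed 0.168 CPM. Csf1r was lower in Thbs2KO without overlap, and 11 overlapped.

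In the alternative group Cfp, the properdin gene, was testable (log2 fold change 0.08), and Cfd, the gene of factor D, which cleaves factor B, was at 0 in every library, where a count of 0 allows up to 0.126 to 0.147 CPM for counting error only. Of 7 terminal genes Hc, the mouse C5 gene, was testable, at 10.5, 3.86 and 4.82 CPM in WT and 7.23, 3.13 and 3.86 CPM in Thbs2KO (log2 fold change -0.43), and C8a and C8b were at 0 in every library. Of 10 receptor genes 4 were testable and 3 had negative log2 fold changes. C1qbp, Cd93 and C3ar1, the receptor of the C3a anaphylatoxin, had log2 fold changes of -0.18, -0.51 and -0.39 without a call, and Cd93 and C3ar1 stayed below 1 CPM in every library.

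Among 23 genes of transcription factors and cytokine receptors known to act upstream of complement genes, 1 was called higher and 0 lower by edgeR, beside 0.552% called higher over all tested genes. That gene was Il6ra, which encodes the interleukin-6 receptor. It rose from 17.1 ± 1.78 to 31.0 ± 3.54 CPM (SD, n = 3), a log2 fold change of 0.85 with an SE of 0.124 (adjusted p = 0.0353 by edgeR with Benjamini-Hochberg adjustment). The call did not hold with each library left out: it remained without WT replicate 1 (adjusted p = 0.0272, in a fit that called 2.89% of all tested genes) and was lost without any of the other 5, with adjusted p up to 0.169. Its log2 fold change stayed between 0.76 and 0.94.

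Next by p were Ifnar1, a chain of the type I interferon receptor, at 68.0 ± 3.49 and 99.9 ± 9.90 CPM (log2 fold change 0.56, edgeR Benjamini-Hochberg adjusted p = 0.056), and Cebpd, the C/EBP-delta gene, at 41.9 ± 7.40 and 23.9 ± 0.950 CPM (-0.81, adjusted p = 0.059). The groups did not overlap for either gene, which held for 5 of the 23 genes, beside 19.7% of all tested genes. DESeq2 called both, among 3 of the 23, beside 5.15% of all genes that had an adjusted p. Ifnar1 also passed edgeR's threshold under RLE and upper-quartile scaling (Benjamini-Hochberg adjusted p = 0.0489 and 0.0457). With 1 library left out, Ifnar1 was called in 1 of 6 edgeR fits and Cebpd in 2 of 6. Their Benjamini-Hochberg adjusted p in those fits reached 0.233 and 0.248. The median log2 fold change of the 23 genes was -0.01.

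The 5 genes most like C3 among the 10475 genes averaging 5 CPM or more, by Pearson correlation of log2 CPM over the 6 libraries, were Fam53b, Adipor1, Adamts12, Ctnna1 and Igsf9b, with r from 0.974 to 0.988. None of them was a complement gene, and edgeR called none of them. Their log2 fold changes ran from -0.07 for Ctnna1 to -0.96 for Adamts12, beside -1.33 for C3. A correlation does not measure the size of a change. Adamts12, a secreted metalloprotease gene, measured 137.4, 204.8 and 157.8 CPM in WT and 73, 89.5 and 95 CPM in Thbs2KO (log2 fold change -0.96, edgeR Benjamini-Hochberg adjusted p = 0.066), and like C3 it was highest in WT replicate 2 and lowest in Thbs2KO replicate 1. Among the members, Cd59a and Cd55 had the highest correlations with C3, at 0.671 and 0.637, and C1s1 the lowest, at -0.374, as descriptions over the same 6 libraries.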

How the data were processed

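The authors deposited unscaled expected counts, RSEM's estimates of reads per gene, in 1 column per library. The tools named per the submitters' processing notes are RSEM, STAR 2.7.3a and Trimmomatic 0.39, with the build mm10. The annotation release is not given. Per the labels' protocols, libraries were made with a TruSeq v2 kit. Each library held 3.80% to 3.88% fractional values, which were rounded before testing.

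Genes passing filterByExpr were scaled with TMM factors and tested with edgeR 4.0.16 (R 4.3.3; robust quasi-likelihood, a single genotype term), with Benjamini-Hochberg adjustment over 13590 genes and a threshold of 0.05. The F statistic gave the standard errors and 95% intervals. Positions and exon lengths came from GENCODE M21, joined by Ensembl identifier without version (55141 of 55401 genes). Transcripts were aligned with BLAST+ 2.17.0. The steps were tested on simulated counts. Members and lists were chosen with earlier results of these data known. Named genes were the members, in each role the 3 testable genes of smallest p and any called, and the 5 most like C3; some genes of the lists are counted but not reported here by name. Alternatives were DESeq2 1.42.0, limma-voom 3.58.1, scaling by RLE or upper quartile, a stricter or no filter, a non-robust fit, a replicate block, libraries left out singly or in a pair, Thbs2KO replicates 1 and 2 summed, and near copies summed. Figures were drawn with matplotlib 3.10.9.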

Additional observations from a re-analysis of the deposited data

How the results depend on the processing

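The count of called genes over the whole table, 148 by edgeR, was 699 with DESeq2, 245 without a filter, 30 with the replicate block, 1519 without WT replicate 1 and Thbs2KO replicate 3, and 40 with Thbs2KO replicates 1 and 2 summed, and it ran from 38 (without Thbs2KO replicate 1) to 397 (without WT replicate 1) with 1 library left out. Of the 8 members, 0 were called in the reported fit, 1 by DESeq2, 1 without a filter and 3 without both of those libraries; the other settings, each single library left out included, called 0. Of the other complement genes 1 was called by DESeq2 and 2 (Clu lower and Colec12 higher) without both libraries. Of the upstream genes, 1 called in the reported fit, 2 were called under RLE scaling, upper-quartile scaling and the stricter filter, 3 by DESeq2 and without a filter, 5 without both libraries, 0 with the replicate block and with Thbs2KO replicates 1 and 2 summed, and 0 to 3 with 1 library left out. C4b reversed to -0.25 without both libraries and ran from -0.40 to 0.40 with 1 left out, and Serping1 ran from -0.77 to 0.052; the cause was not tested. Thbs2 kept its direction throughout, and with the replicate block its log2 fold change of -2.86 had an edgeR Benjamini-Hochberg adjusted p = 0.0784. Same-numbered libraries did not deviate together (correlations of -0.292, 0.171 and -0.331), so the numbers were not taken as pairs. Cfb, at 9 counts in each of Thbs2KO replicates 1 and 2, was the member with the fewest counts.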

Other observations

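The level of C1s1 relative to its inhibitor gene Serping1, per length, was 7.26, 2.23 and 2.08 in the WT group, by replicate number, and 7.495, 4.43 and 6.30 in the Thbs2KO group. C1ra over Serping1 gave 3.22, 1.07 and 0.889 in WT and 3.21, 1.93 and 2.26 in Thbs2KO. WT replicate 1 lay within the Thbs2KO range in the first ratio and just above it in the second, and the groups overlapped in both. These ratios were formed after the data were seen and were not tested.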
